A study of Rattus norvegicus with 31 samples.

Results

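Circadian clock genes were followed in the CA3 region of the hippocampus of aged rats, from 9 named genes: Per1, Per2, Per3, Cry2, Clock, Nr1d1, Nr1d2, Dbp and Bhlhe41. A probeset, a set of short probes that reads one transcript region on the Affymetrix rat array, was taken when the array annotation gave it one of these symbols and no other. This found 13 probesets for 8 of the 9 genes, of 16204 deposited probesets and of 12242 with a single symbol. The deposited values leave out part of the array, and the smallest mean of a deposited probeset was 5.00 on the log2 scale. Counts over all probesets or over the whole array refer to the deposited ones. Nr1d1 had no such probeset among them and was not analysed here. Whether the full array holds one was not checked. Nr1d2 and Clock had 3 probesets each, Cry2 had 2, and the others had 1. The probeset with the highest mean over all arrays, called the brightest here, stands for a gene where 1 value per gene is needed.

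The study trained male Long-Evans rats in a water maze with a visible platform, with 8 trials in 1 session. The rats were 24 months old when first assessed for memory, and this training came about 1 month later. A probe swim without the platform was given 1 hour after training. CA3 was taken right after that swim, about 2 hours after the task began. The rats had been classed beforehand, from their memory for a hidden platform, as aged unimpaired (AU), which performed like young adults, or aged impaired (AI), which performed worse. In the spatial task (S) the platform stayed in place among prominent cues, and in the non-spatial task (NS) it was moved between trials and the cues were removed. The spatial task was given to 8 AU-S and 8 AI-S rats and the non-spatial task to 8 AU-NS and 7 AI-NS rats, each with its own array, and AU-act (16 rats) and AI-act (15 rats) pool both tasks. CA3 was cut out by hand under a microscope and pooled over both hemispheres of a rat, so a level is a mean over all its cell types. Of 6 CA3 pyramidal markers 5 were measured, and none passed the test between AU-act and AI-act. All 5 were higher in AU-act, by 0.05 to 0.11 on the log2 scale. Their mean z-score averaged 0.26 ± 0.66 in AU-act and -0.28 ± 0.57 in AI-act (SD).

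The cell-autonomous clock is a loop of transcription. The factor CLOCK and its partner bind E-boxes and switch on the Per and Cry genes, whose proteins then repress them, and they also drive Nr1d2, Dbp and Bhlhe41. NR1D2 (REV-ERB beta) is a nuclear receptor that represses through ROR elements, DBP activates through D-boxes, and BHLHE41 (DEC2) competes at E-boxes and represses. In the brain these genes cycle over the day in neurons and glia, and Per1 and Per2 can also respond quickly to neuronal activity and glucocorticoids. The time of day at which each rat was killed is not given in the sources used here, and each rat gives 1 time point, so no phase was read from these levels.

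Array medians lay between 8.97 and 9.14 on the log2 scale, and no 2 arrays held the same values. The 13 clock probesets had means between 6.77 (Nr1d2 1370540_at) and 11.32 (Nr1d2 1390430_at) on that scale. RNA quality moved with the cognitive groups. Control probesets read both ends of the beta-actin and Gapdh transcripts, and the signal at the 3′ end less that at the 5′ end, which grows as RNA gets shorter, averaged 1.45 ± 0.10 (SD, n = 16) in AU-act and 1.59 ± 0.13 (SD, n = 15) in AI-act (two-sided permutation test, p = 0.00061). The hexokinase control difference averaged 1.41 ± 0.15 in AU-act and 1.79 ± 0.27 in AI-act (SD).

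Cry2 and Clock each had 1 probeset that passed the test with a higher level in AU-act than in AI-act. No clock probeset passed with a lower level, although 5 of the 13 differences were negative. Thus 2 of 13 probesets passed an adjusted p of 0.05 in limma, while 5.51% of all probesets passed it and 5.00% passed it with a higher level in AU-act. Neither of the 2 was the brightest probeset of its gene. An unadjusted p under 0.05 was found for 5 of the 13 probesets, against 19.5% of all probesets. The median difference of the 13 was 0.10, that of the 8 brightest probesets was 0.05, and that of all probesets was 0.01 on the log2 scale. Of 4 interneuron markers 1 passed, Gad2, which encodes an enzyme that makes GABA (0.48 higher in AU-act, SE 0.14, adjusted p = 0.0391), and its part in these results was not tested. No measured marker of CA1, dentate granule cells, astrocytes, oligodendrocytes, microglia or endothelium passed. In such tissue a fall in the number of a cell type and a fall in its RNA per cell cannot be told apart.

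**Figure D1:**
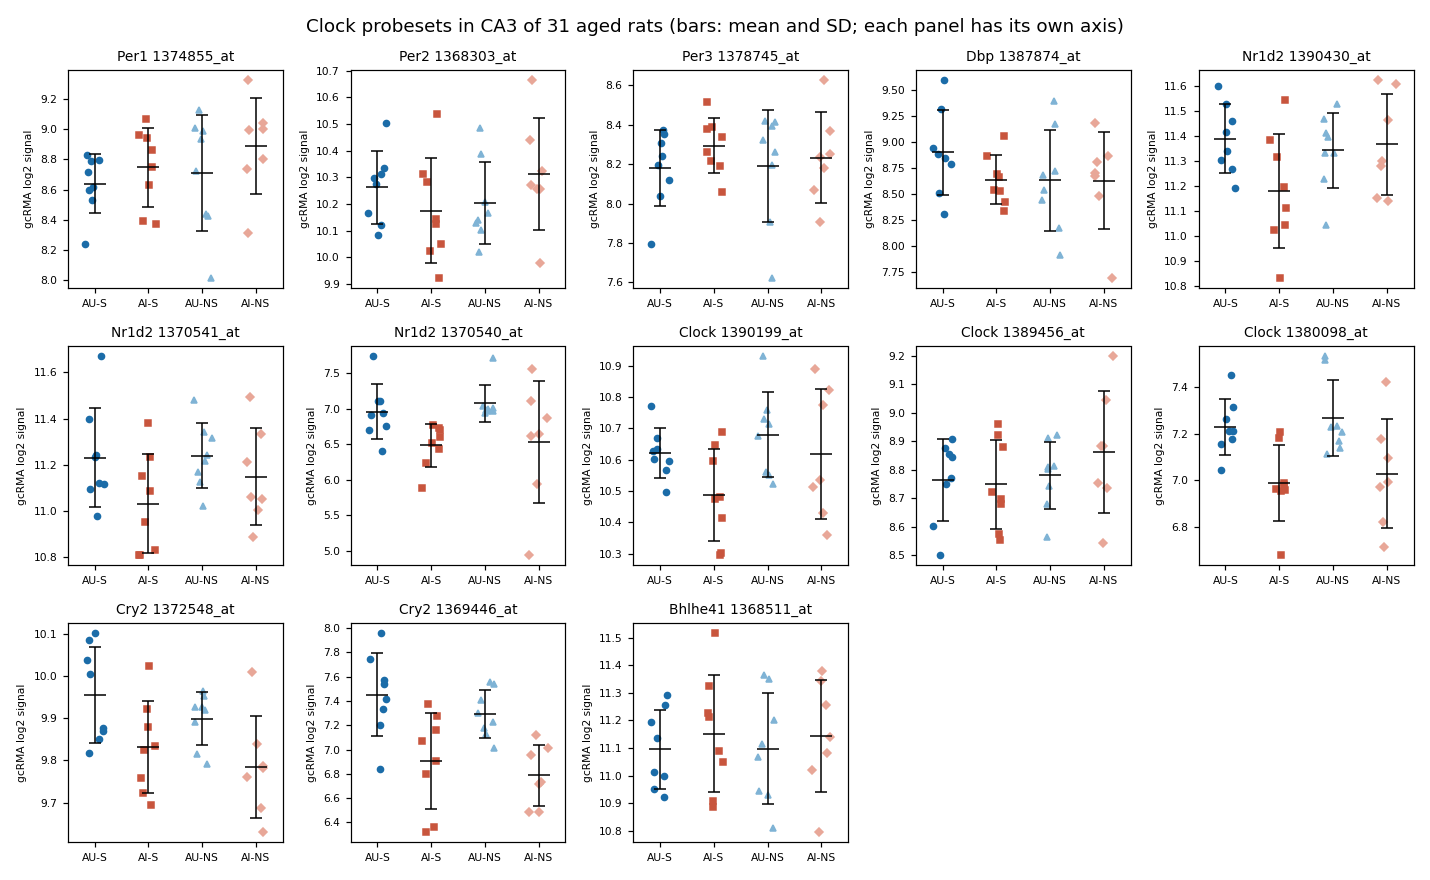
The gcRMA log2 signal of each of the 13 clock probesets by task and cognitive group, with 1 point per rat and the mean and SD as bars. Each panel has its own axis, and the groups overlapped in every panel, with the least overlap for Cry2 1369446_at after the non-spatial task, where 7 of 8 AU-NS rats lay above every AI-NS rat.

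The repressors of the loop come first. Cry2 encodes a cryptochrome, a partner of the PER proteins in repression. Its probeset 1369446_at lay between 6.84 and 7.96 with a median of 7.48 in AU-S, against 6.32 to 7.38 with a median of 6.99 in AI-S. After the non-spatial task it lay between 7.01 and 7.55 with a median of 7.26 in AU-NS, against 6.49 to 7.12 with a median of 6.73 in AI-NS. The groups overlapped, but 8 of 16 AU-act rats were above the highest AI-act rat and 7 of 15 AI-act rats were below the lowest AU-act rat. AU-act exceeded AI-act by 0.52 (SE 0.11, 95% interval 0.30 to 0.74, adjusted p = 0.00324), with 15 of 16 AU-act rats above the AI-act mean. After the spatial task the difference was 0.54 (SE 0.17, adjusted p = 0.190), and after the non-spatial task it was 0.51 (SE 0.11, adjusted p = 0.155), so that neither task passed alone.

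The brightest Cry2 probeset, 1372548_at, gave a smaller difference. It lay between 9.79 and 10.10 in AU-act, with a median of 9.92, against 9.63 to 10.02 in AI-act, with a median of 9.79. The AU-act minus AI-act difference was 0.12 (SE 0.04, adjusted p = 0.0747), with 15 of 16 AU-act rats above the AI-act mean. It passed with dentate and CA1 marker scores as covariates (0.13, adjusted p = 0.0405), without AI-NS replicate 4 (adjusted p = 0.0311) and without AI-S replicate 7 (adjusted p = 0.0296). With each of the 31 arrays left out in turn the adjusted p ran up to 0.132. The AU-act minus AI-act difference was 0.08 (adjusted p = 0.501) with the difference of the control probesets as a covariate and 0.06 (adjusted p = 0.796) with that of hexokinase. Within rats, the level of 1369446_at minus that of 1372548_at was higher in AU-act than in AI-act by 0.40, a description chosen after both differences were known. Over the 31 rats, after the group means were taken off, their levels had a Pearson r of 0.50.

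With the beta-actin and Gapdh difference as a covariate, the difference of Cry2 1369446_at was 0.32 (adjusted p = 0.264), and with the hexokinase difference, a covariate chosen after seeing the data, it was 0.31 (adjusted p = 0.619). Only 1 probeset of the array passed with the first covariate and 0 with the second. Within groups its level fell as the control difference grew (r = -0.58, rho = -0.58, r = -0.60 without the 2 rats farthest from the median, adjusted p = 0.0190 by permutation over 156 relations of clock probesets with marker scores and control differences). The part of RNA quality in the difference was not tested beyond these fits.

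The Period genes encode the other partner of the repressor complex, and none of the 3 passed the test. Per1 lay between 8.01 and 9.13 in AU-act, with a median of 8.72, against 8.31 to 9.33 in AI-act, with a median of 8.86. Its difference was -0.14 (95% interval -0.35 to 0.07, adjusted p = 0.481), with 11 of 16 AU-act rats below the AI-act mean. It was -0.32 (adjusted p = 0.242) with the beta-actin and Gapdh covariate and -0.38 (adjusted p = 0.619) with hexokinase, and its group-centred r with these control differences was -0.49 (adjusted p = 0.105) and -0.46 (adjusted p = 0.133). Per2 lay between 10.02 and 10.50 in AU-act and between 9.92 and 10.67 in AI-act, with a difference of -0.01 (SE 0.06, 95% interval -0.13 to 0.12). Per3 lay between 7.62 and 8.42 in AU-act and between 7.90 and 8.63 in AI-act, with a difference of -0.08 (95% interval -0.23 to 0.07, adjusted p = 0.599). All 3 ranges overlapped for most of their length.

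Clock encodes the activator of the loop, and it was read by 3 probesets. The probeset 1380098_at lay between 7.04 and 7.45 with a median of 7.21 in AU-S, against 6.68 to 7.21 with a median of 6.97 in AI-S. It lay between 7.11 and 7.53 with a median of 7.22 in AU-NS, against 6.71 to 7.42 with a median of 6.99 in AI-NS. All 16 AU-act rats were above the AI-act mean, and 10 of 15 AI-act rats were below the lowest AU-act rat. The difference was 0.24 (SE 0.06, 95% interval 0.12 to 0.36, adjusted p = 0.0130) for AU-act against AI-act, and 0.24 in each task (adjusted p = 0.181 for S and 0.375 for NS).

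The brightest Clock probeset, 1390199_at, gave 0.10 (SE 0.05, adjusted p = 0.303) and 1389456_at gave -0.03 (SE 0.06, adjusted p = 0.833). Within rats 1380098_at minus the brightest probeset was higher in AU-act by 0.14, while for 1389456_at the value was -0.13. After centring on group means, 1390199_at had an r of 0.51 with 1380098_at and of 0.13 with 1389456_at. With the beta-actin and Gapdh covariate the difference of 1380098_at was 0.17 (adjusted p = 0.330), and with the hexokinase covariate it was 0.05 (adjusted p = 0.894). Its group-centred level fell with the hexokinase difference (r = -0.66, rho = -0.70, r = -0.58 without the 2 farthest rats, adjusted p = 0.0190 over the 156 relations).

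**Figure D2:**
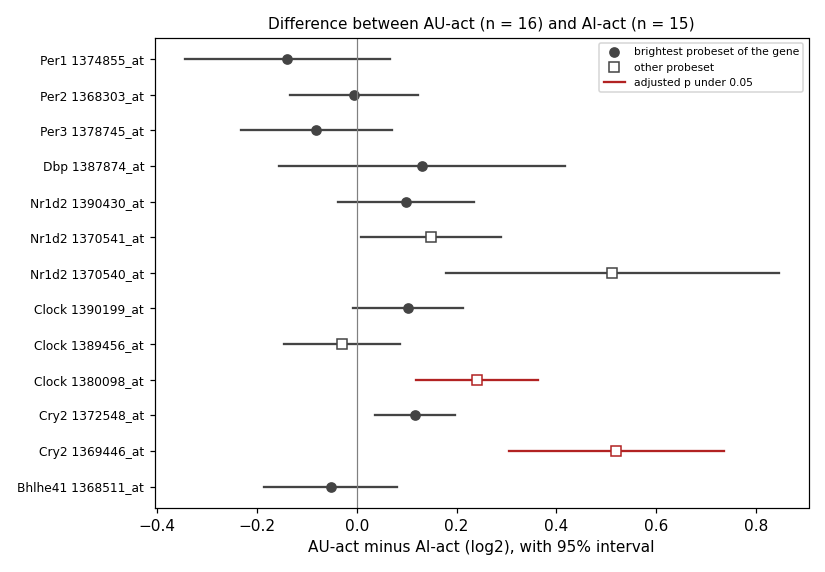
The AU-act minus AI-act difference of the 13 clock probesets on the log2 scale, with 95% intervals from limma, filled circles for the brightest probeset of a gene and open squares for its other probesets. Only Cry2 1369446_at (0.52) and Clock 1380098_at (0.24) passed an adjusted p of 0.05, and both are open squares.

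None of the 3 probesets of Nr1d2 was called. Its dimmest probeset, 1370540_at, lay between 6.41 and 7.73 in AU-act, with a median of 6.97, against 4.94 to 7.56 in AI-act, with a median of 6.61. The difference was 0.51 (SE 0.16, 95% interval 0.18 to 0.85, adjusted p = 0.0597), with 15 of 16 AU-act rats above the AI-act mean. It was 0.25 (adjusted p = 0.620) with the beta-actin and Gapdh covariate, 0.08 (adjusted p = 0.947) with the hexokinase covariate and 0.26 (adjusted p = 0.364) with a covariate of oligodendrocyte markers. Its group-centred r with the hexokinase difference was -0.51 (rho -0.33, r = -0.10 without the 2 farthest rats, adjusted p = 0.210 over the 156 relations). The adjusted p went below 0.05 without AI-NS replicate 4 (0.0157), AI-NS replicate 6 (0.0384) or AU-S replicate 7 (0.0410). With each of the 31 arrays left out in turn it ran up to 0.0999, and the difference ran from 0.40 to 0.59. The other probesets gave 0.15 (1370541_at, adjusted p = 0.223) and 0.10 (1390430_at, the brightest, adjusted p = 0.444). Within rats 1370540_at minus the brightest probeset was higher in AU-act by 0.41, and 1370541_at minus the brightest by 0.05. The 2 brighter probesets had a group-centred r of 0.85, and their r with 1370540_at was 0.49 for 1390430_at and 0.62 for 1370541_at.

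Dbp and Bhlhe41, an output activator and a repressor, gave no call between AU-act and AI-act. Dbp lay between 7.91 and 9.60 with a median of 8.76 in AU-act, against 7.69 to 9.19 with a median of 8.67 in AI-act, and its difference was 0.13 (95% interval -0.16 to 0.42, adjusted p = 0.662). Bhlhe41 lay between 10.81 and 11.37 with a median of 11.09 in AU-act, against 10.80 to 11.52 with a median of 11.14 in AI-act, and its difference was -0.05 (95% interval -0.19 to 0.08, adjusted p = 0.721). The 2 groups overlapped widely for both genes. By task, Bhlhe41 ranged from 10.92 to 11.29 in AU-S and from 10.89 to 11.52 in AI-S, and from 10.81 to 11.37 in AU-NS and from 10.80 to 11.38 in AI-NS.

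Within each task, no clock probeset passed an adjusted p of 0.1. Between AU-S and AI-S, where 0.413% of all probesets passed, the smallest adjusted p of a clock probeset was 0.181, and 5 of 13 had an unadjusted p under 0.05, against 12.3% of all probesets. These 5 were Nr1d2 1390430_at and 1370540_at, Clock 1390199_at and 1380098_at, and Cry2 1369446_at, so genes were again counted more than once. Between AU-NS and AI-NS, where 0% of all probesets passed, the smallest adjusted p of a clock probeset was 0.155. There 2 of 13 had an unadjusted p under 0.05, against 11.5% of all probesets. The 3 measured dentate granule markers had AU-S minus AI-S differences from -0.51 to -0.31, each with an unadjusted p under 0.05 and none past the adjusted threshold (smallest adjusted p = 0.209), with a mean score of -0.31 ± 0.55 in AU-S and 0.81 ± 0.87 in AI-S, and of -0.12 ± 0.39 in AU-NS and -0.44 ± 0.90 in AI-NS (SD). With dentate and CA1 scores as covariates no clock probeset passed in either task, and 0% of all probesets did. Without AI-S replicate 7, Clock 1380098_at (0.27, adjusted p = 0.0853) and Cry2 1369446_at (0.61, adjusted p = 0.0919) passed in the first comparison, while the calls over the whole array grew to 448 (2.76%), against 67 with all rats. Without AI-NS replicate 3, Cry2 1369446_at passed in the second (0.54, adjusted p = 0.0723), and so did 208 probesets of the whole array (1.28%). The brightest Nr1d2 probeset lay between 11.19 and 11.60 in AU-S and between 10.83 and 11.55 in AI-S (difference 0.21, adjusted p = 0.374), and between 11.05 and 11.53 in AU-NS and between 11.14 and 11.63 in AI-NS (difference -0.02, adjusted p = 0.952). The difference between these 2 differences was 0.23 (95% interval -0.03 to 0.50), and like all 13 probesets it did not pass the test of interaction, where 0% of all probesets passed.

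The task itself left the clock genes without a call. Between S and NS, with cognitive status as a term, 0 of 13 probesets passed in limma and 0% of all probesets did, with 0 of 13 also at an unadjusted p under 0.05. The differences ran from -0.10 (Per1, 95% interval -0.31 to 0.10) to 0.14 (Dbp, 95% interval -0.14 to 0.43). Per1 lay between 8.24 and 8.83 in AU-S and between 8.01 and 9.13 in AU-NS, and between 8.37 and 9.07 in AI-S and between 8.31 and 9.33 in AI-NS. Neither AI-S against AI-NS nor AU-S against AU-NS gave a clock call (0% of all probesets in each), and the smallest adjusted p was 0.862 in AI rats and 0.736 in AU rats. In these 2 comparisons 0 of 13 probesets had an unadjusted p under 0.05. A test on simulated data changed 200 of 16204 probesets, with noise independent between probesets. Between S and NS it recovered 96.0% of those changed by 1.5-fold and 54.0% of those changed by 1.2-fold. With fewer changed probesets the adjusted threshold is stricter, so recovery of a change in the clock genes alone was not tested.

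Other genes of the pathway were taken from fixed lists. Of 20 further clock genes 14 were measured, and 0 of 14 passed in each of the 7 comparisons. Between AU-act and AI-act 9 of the 14 had a positive difference, the median was 0.01, and 2 had an unadjusted p under 0.05, near the 19.5% of all probesets. At the 5.51% of all probesets called there, a count of 0 among 14 is not far from the background. The 3 with the smallest p were Csnk1e, a kinase that marks PER proteins for breakdown (0.11, SE 0.04, adjusted p = 0.0800), Npas2, a relative of Clock (-0.20, SE 0.08, adjusted p = 0.131), and Rorb, a nuclear receptor that acts at ROR elements (-0.36, SE 0.20, adjusted p = 0.339). Of the lists for inputs known to reach Per1 and Per2, 0 of 8 measured glucocorticoid-responsive genes and 0 of 9 measured activity-regulated genes passed between AU-act and AI-act. Their median differences were -0.03 and -0.11. Over the 156 relations, the group-centred activity score had r of 0.47 with Per1 and 0.48 with Per2 (adjusted permutation p = 0.133 each). Without the 2 farthest rats these were 0.32 and 0.25. For the glucocorticoid score r was 0.15 with Per1 and 0.30 with Per2 (adjusted permutation p = 0.693 and 0.412).

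The members differed in how much they varied between rats of 1 group. Dbp had a within-group SD of 0.41 on the log2 scale, larger than that of 94.9% of all probesets, whose median was 0.18. Per1 (SD 0.30) was above 86.1% of probesets and the brightest Cry2 probeset (SD 0.10) above 11.5%. The other brightest probesets were nearer the middle, with SDs between 0.15 for Clock and 0.22 for Per3. Dbp ranged from 8.30 to 9.60 in AU-S, from 8.33 to 9.06 in AI-S, from 7.91 to 9.40 in AU-NS and from 7.69 to 9.19 in AI-NS. Its SD was 0.41 in AU-S, 0.24 in AI-S, 0.49 in AU-NS and 0.47 in AI-NS, so the spread was smallest in AI-S.

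Rats with more Dbp than their group also had more Bhlhe41, and rats with more Bhlhe41 had more Nr1d2. Covariation was tested on the brightest probesets, as the slope of each probeset on a clock gene with the 4 groups as a term, adjusted over all probesets. A pair was called when it passed in both directions, and 2 of 28 pairs were. In 1 direction, slopes passed for 3.07% of all probesets on Dbp, 0.549% on Bhlhe41 and 0.913% on Nr1d2. The share of all gene pairs that pass in both directions is not given here, so the count of pairs has no background. For Dbp and Bhlhe41 r was 0.76 and rho 0.75 over the 31 group-centred rats (permutation p = 1e-05, the smallest these resamples can give), with adjusted p of 0.0030 and 0.00397 in the 2 directions. Without the 2 rats farthest from the median r was 0.71, and within groups it was 0.77 in AU-S, 0.60 in AI-S, 0.80 in AU-NS and 0.94 in AI-NS. Only 0.0617% of all probesets had a higher r with Dbp than Bhlhe41 had.

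For Nr1d2 and Bhlhe41 r was 0.65 and rho 0.62 (permutation p = 0.00043, adjusted p of 0.0377 and 0.0387). Within groups r was 0.63 in AU-S, 0.61 in AI-S, 0.66 in AU-NS and 0.72 in AI-NS. The call was lost without any one of 15 of the 31 rats (AU-S replicates 2, 5 and 7, AI-S replicates 1, 2, 3, 6 and 7, AU-NS replicates 4, 5 and 8, and AI-NS replicates 1, 4, 5 and 8), with the larger adjusted p between 0.0502 and 0.119. Over all 31 omissions r was between 0.61 and 0.70, while that of Dbp and Bhlhe41 held in all of them with r between 0.71 and 0.79. Dbp and Nr1d2 (r = 0.55, permutation p = 7e-04) had adjusted p of 0.0544 and 0.0823, so the third side of this trio was not called.

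**Figure D3:**
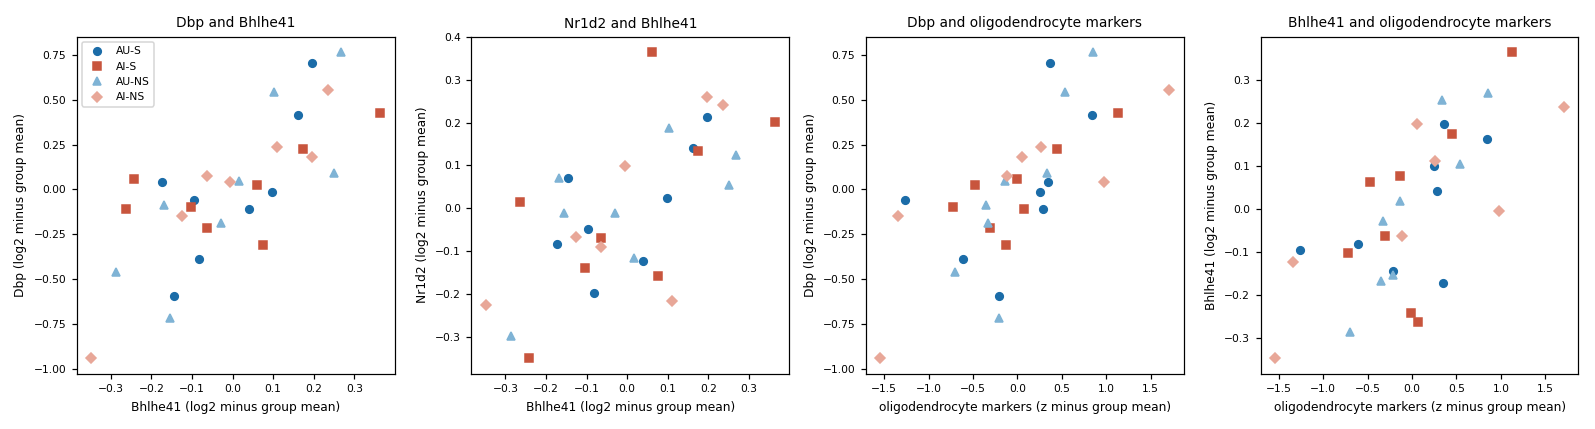
Levels of 31 rats minus their group mean, as Dbp and then Nr1d2 against Bhlhe41 (log2), and as Dbp and then Bhlhe41 (log2) against the mean z-score of 4 oligodendrocyte markers, with 1 symbol per rat and a colour and shape per group. All 4 panels rise from lower left to upper right, with r of 0.76, 0.65, 0.71 and 0.70.

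How much of the array moved with a clock gene differed widely. Slopes passed for 18.8% of all probesets on Clock, 3.36% on Per2, 3.07% on Dbp, 1.33% on Cry2, 0.913% on Nr1d2, 0.549% on Bhlhe41, 0.0247% on Per3 and 0.0185% on Per1. No clock gene passed on Clock in both directions, although Clock had the largest share. Of the 28 pairs 17 had a positive and 11 a negative r, the median was 0.14, and 9 had a permutation p under 0.05. The share of all gene pairs with such a permutation p is not given here either.

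Among the pairs that were not called, Per3 and Dbp had r of 0.63 (permutation p = 0.00117, adjusted p of 0.116 and 0.0241). Their r was 0.00 in AU-S, 0.79 in AI-S, 0.81 in AU-NS and 0.85 in AI-NS, and the difference between groups was not tested. Per1 and Cry2 had r of 0.51 (permutation p = 0.00248), with 0.25 in AU-S, 0.64 in AI-S, 0.34 in AU-NS and 0.88 in AI-NS. The lowest r was -0.54, for Per3 and Clock (permutation p = 0.00241, adjusted p of 0.234 and 0.0196). By group it was -0.55 in AU-S, 0.19 in AI-S, -0.74 in AU-NS and -0.83 in AI-NS. Per1 and Per2, both targets of the same loop, had r of 0.17. Their r was 0.55 in AU-S, -0.68 in AI-S, 0.60 in AU-NS and 0.36 in AI-NS, and these group differences were not tested.

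**Figure D4:**
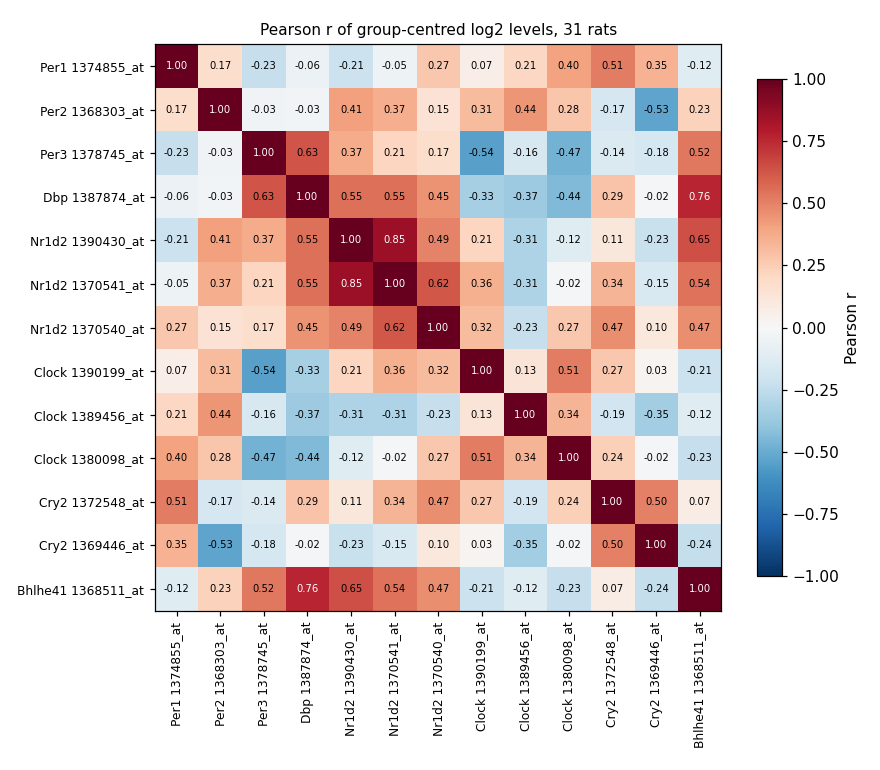
Pearson r between the group-centred log2 levels of the 13 clock probesets over 31 rats, from -1 in blue to 1 in red. Dbp, the Nr1d2 probesets and Bhlhe41 have positive values with each other, with 0.76 for Dbp with Bhlhe41. Per3 is also positive with each of them, at 0.63 with Dbp and 0.52 with Bhlhe41. The brightest Clock probeset is at -0.54 with Per3.

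The levels of Dbp and Bhlhe41 also moved with markers of oligodendrocytes, the cells that make myelin. The mean z-score of the 4 measured of 5 oligodendrocyte markers (Mbp, Mog, Mag and Mobp) had r of 0.71 with Dbp (rho 0.77, r = 0.62 without the 2 farthest rats, adjusted p = 0.00390 over the 156 relations) and r of 0.70 with Bhlhe41 (rho 0.69, 0.62 without the 2, adjusted p = 0.00156). The r with Nr1d2 was 0.51 (adjusted p = 0.105). The score lay between -1.03 and 1.07 in AU-S, between -1.05 and 0.81 in AI-S, between -0.30 and 1.25 in AU-NS and between -1.89 and 1.36 in AI-NS, and averaged 0.31 ± 0.59 in AU-act and -0.34 ± 0.87 in AI-act (SD). With it as a covariate, chosen after seeing the data, the r of Dbp and Bhlhe41 was 0.52 and that of Nr1d2 and Bhlhe41 0.47, and neither was called (adjusted p = 0.581 and 0.623).

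Markers of other cells were set against the trio in the same way. Of 4 microglia markers 2 were measured, and their score had r of 0.63 with Dbp (rho 0.54, r = 0.67 without the 2 farthest rats, adjusted p = 0.00728) and 0.53 with Bhlhe41 (adjusted p = 0.0938). The score of 5 of 5 astrocyte markers had r of 0.45 with Dbp (adjusted p = 0.176), 0.44 with Bhlhe41 (adjusted p = 0.134) and 0.43 with Nr1d2 (adjusted p = 0.134), and with it as a covariate the r of Dbp and Bhlhe41 was 0.70 (adjusted p = 0.0556). The microglia score averaged -0.20 ± 0.69 in AU-act and 0.21 ± 1.10 in AI-act, and the astrocyte score 0.13 ± 0.46 in AU-act and -0.14 ± 0.52 in AI-act (SD). None of the 4 choroid plexus markers had a probeset among the deposited values. The brightest Cry2 probeset moved with the score of the 3 measured of 4 CA1 markers (r = 0.53, rho = 0.59, r = 0.38 without the 2 farthest rats, adjusted p = 0.0224). The CA1 score lay between -2.20 and 1.44 in AU-act and between -0.82 and 1.98 in AI-act. Of the 156 relations 6 passed 0.05, which are these of Dbp (2), Bhlhe41 (1) and Cry2 (1) and the 2 with RNA control differences given above. How many of all probesets relate as strongly to these scores is not given here. No relation is therefore shown to be particular to the clock genes.

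The genes most like each member by group-centred r were named by rank alone. For Dbp they were Plekhb1 (r = 0.84), Vim, the intermediate filament vimentin (0.82), and Tpm1, a tropomyosin (0.81). For Bhlhe41 they were Carhsp1 (0.79), Slc44a1, a choline transporter (0.78), and Tes (0.78), and for Nr1d2 they were Pkp4 (0.79), Wipi1 (0.76) and Rfx4 (0.76). For Clock they were Mmut (0.82), Atg2b (0.81) and Usp34 (0.81), and for Per2 they were Ctnnb1, which encodes beta-catenin, Pum2 and Pan3 (0.77 each). For Per1 they were Setd1a (0.78), Gphn (0.77) and Epn2 (0.75), for Per3 Scpep1 (0.77), Smpdl3a (0.72) and Txndc12 (0.69), and for Cry2 Trim35 (0.79), Klc1 (0.75) and Vps51 (0.75). No clock gene was among the 3 most alike of another.

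The promoters of the 3 genes in the called pairs are shown because each gene was in a called pair, although Dbp with Nr1d2 was not called. Each run is the RefSeq promoter on the rat assembly GRCr8, 5′ to 3′ on the strand of the gene, with 250 bases before and 50 bases after the start, and capitals mark a match to one of 4 motifs.
Bhlhe41 (chr4:180569306-180569605, minus strand): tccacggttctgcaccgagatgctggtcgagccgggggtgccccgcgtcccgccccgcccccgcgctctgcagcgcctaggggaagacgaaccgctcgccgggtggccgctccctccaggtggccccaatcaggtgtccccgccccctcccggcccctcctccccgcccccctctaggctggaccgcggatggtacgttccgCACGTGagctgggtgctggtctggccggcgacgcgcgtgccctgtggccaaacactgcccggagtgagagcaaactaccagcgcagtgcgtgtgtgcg
Dbp (chr1:105312006-105312305, plus strand): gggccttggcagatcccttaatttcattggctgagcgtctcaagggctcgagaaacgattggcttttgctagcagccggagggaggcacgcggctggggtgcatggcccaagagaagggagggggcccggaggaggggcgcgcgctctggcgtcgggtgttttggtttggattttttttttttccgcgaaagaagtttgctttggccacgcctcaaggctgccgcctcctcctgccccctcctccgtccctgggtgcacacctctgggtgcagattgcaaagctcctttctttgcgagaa
Nr1d2 (chr15:9954784-9955083, plus strand): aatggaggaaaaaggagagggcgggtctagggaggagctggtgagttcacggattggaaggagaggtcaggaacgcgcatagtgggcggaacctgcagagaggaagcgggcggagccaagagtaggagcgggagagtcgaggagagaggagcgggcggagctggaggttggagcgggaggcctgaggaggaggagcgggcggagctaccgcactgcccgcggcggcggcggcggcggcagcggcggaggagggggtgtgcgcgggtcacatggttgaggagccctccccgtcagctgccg
The motifs, searched on both strands, were the E-box CACGTG, the D-box TTANGTAA, the ROR element TAGGTCA and the CRE TGACGTCA. Bhlhe41 held 1 E-box, whose first base is at -48 from the start, and the windows of Dbp and Nr1d2 held none of the 4. E-boxes were found in 6.42% of 33469 RefSeq promoters of this length, D-boxes in 2.24%, ROR elements in 2.63% and CREs in 1.83%. Of the other measured members only Per2 had a match, a D-box at -192. The only Per1 window (chr10:54304126-54304425, plus strand) lies inside the gene, which begins at 54299002. The region before the first base of Per1 was therefore not searched.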

How the data were processed

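RNA from CA3 of 31 rats was measured on Affymetrix rat arrays, 1 array per rat, in 4 groups taken from the sample titles. The authors made the deposited log2 values with gcRMA (background correction, quantile normalization and probeset summary) and excluded 1 AI-NS array. Age, trials and timing come from the methods. Precision is limited by the number of rats, since arrays hold no counts. Hybridization batches are not given in the sources used here. The lower limit of 4 on the mean removed 0 of the 16204 deposited probesets, whose smallest mean was 5.00.

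Tests were two-sided limma fits (lmFit and eBayes, version 3.58.1, under R 4.3.3). Adjusted p-values are Benjamini-Hochberg values over the whole array, with thresholds of 0.05 for fits of all rats and 0.1 for the others. The methods used SAM, which was not run here. Covariation was tested as a limma slope with group as a term, beside correlations of group-centred levels with 100000 permutations within groups. Simulated data had 200 probesets changed and independent noise. Between AU-act and AI-act 94.5% of those changed by 1.5-fold and 53.0% of those changed by 1.2-fold were recovered. For slopes 63.5% were recovered at a correlation of 0.7 and 0% at 0.5.

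Probeset symbols come from an older platform annotation. Named are all member probesets, the 3 other clock genes with the smallest p and the 3 genes most like each member. Members and lists were chosen with earlier results of these data known. Promoters were read from RefSeq tables with Python 3.11, and figures drawn with matplotlib 3.10.9. Alternatives were RNA quality and dissection covariates, median centring, quantile normalization, filters, a trend prior, a replicate block, a task term, 1 fit of all 4 groups, and leaving out each array. Astrocyte, oligodendrocyte and hexokinase covariates, and the within-rat differences of probesets, were added after the data were seen.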

Additional observations from a re-analysis of the deposited data

Results flagged for a closer look

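Of 52 sets of values, each of 1 probeset in 1 group, 1 held a rat that stood far from the others of its group. Nr1d2 1370540_at was 7.71 in AU-NS replicate 8, with the next highest AU-NS rat at 7.03 and the lowest at 6.94. The limit used is one that chance alone passes in about 1 in 20 sets.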

How the results depend on the processing

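Both calls between AU-act and AI-act (Cry2 1369446_at and Clock 1380098_at) held under median centring, quantile normalization, a minimum mean of 6, the trend prior, the replicate block, the task term, the dissection covariates and the astrocyte and oligodendrocyte covariates. Dropping the lower limit of 4 changed nothing, since it had removed 0 probesets. The count of clock probesets called was 3 with the dissection covariates (4.92% of all probesets), 0 with the RNA quality covariate and 0 with the hexokinase covariate. The cause was not tested. It was 2 to 4 over the arrays left out in turn (4 without AI-NS replicate 4, when 7.29% of all probesets passed), 0 to 2 for AU-S against AI-S and 0 to 1 for AU-NS against AI-NS.

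The count of pairs called was 1 with the dissection covariates, 1 with median centring, 1 with no group term and 1 with the hexokinase covariate, and 0 with the replicate block, 0 with the astrocyte covariate and 0 with the oligodendrocyte covariate. It was 1 to 3 over the arrays left out.

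Among differences that were not called, the sign changed for Per2 (0.0252 with RNA quality, 0.0042 with the oligodendrocyte covariate, -0.0288 to 0.0244 over arrays left out), Dbp (-0.11, oligodendrocyte), Clock 1389456_at (0.0107, oligodendrocyte), Per3 (0.0799, hexokinase) and Clock 1390199_at (-0.0168, hexokinase) between AU-act and AI-act. Between S and NS it changed for Bhlhe41 (-0.0045 with RNA quality, -0.0154 with dissection, -0.0064 with the replicate block, -0.0031 with the astrocyte and -0.0017 with the hexokinase covariate, -0.0252 to 0.0211 over arrays left out) and Per3 (-0.0167 to 0.0516 over arrays left out).

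The replicate numbers did not pair the rats (mean correlation of deviations -0.08 over 45 same-numbered pairs, and 0 of 31 arrays correlated best with their own number). With the number as a block, r was 0.60 for Dbp and Bhlhe41 (adjusted p = 0.841) and 0.54 for Nr1d2 and Bhlhe41 (adjusted p = 0.980), and the calls of all probesets between AU-act and AI-act numbered 591, against 893. They numbered 1 with the RNA quality covariate, 0 with hexokinase, 468 with the oligodendrocyte and 570 with the astrocyte covariate.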
